A study of Mus minutoides with 4 samples.

Results

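Fibronectin and the matricellular proteins were examined as a set of 10 genes chosen by name, *Fn1*, *Sparc*, *Thbs1*, *Thbs2*, *Comp*, *Postn*, *Tnc*, *Spp1*, *Vcan* and *Matn2*, among the 41325 genes listed in the expression tables. All of them were found. The study made induced pluripotent stem cells (iPSCs) from the African pygmy mouse, *Mus minutoides*. It sequenced RNA from 4 cultures, iPSC lines 6 and 10 and fibroblast lines 1 and 2. Each line was 1 library, with 33084850 to 36694828 reads placed in exons. The iPSC lines, labelled as reprogrammed, came from fibroblasts electroporated with PiggyBac plasmids for doxycycline-inducible OKSM (Oct3/4, Klf4, Sox2 and c-Myc) and GNL (Glis1, Nanog and Lin28a), an rtTA-IRES-eGFP plasmid and a transposase plasmid. Doxycycline was later withdrawn, single cells of chosen colonies founded the lines, and these grew on feeder cells, mitomycin C-treated mouse embryonic fibroblasts, in a medium with 2i inhibitors and serum replacement. The fibroblast lines were primary tail-tip cultures without reprogramming, and no source used here says whether the lines came from separate animals, so p-values cover no more than the variation among these 4 cultures. Age is not given for either group.

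Fibronectin is a secreted dimeric glycoprotein that cells pull into fibrils through integrins, and collagens and other proteins are laid down on those fibrils. Matricellular proteins are secreted into the same matrix but serve mainly to modulate adhesion, growth factor activity and collagen assembly rather than to bear load. They are abundant in fibroblasts, healing wounds and developing connective tissue. Feeder fibroblasts secrete these proteins too, and no step that removed feeder cells before RNA extraction is described in the sources used here. Each iPSC value is therefore also given as a percent of the mean of the fibroblast lines, beside the same percent for genes that mark fibroblasts.

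The cell type labels were checked with marker genes. All 10 pluripotency markers were called higher in iPSCs, with summed levels of 6364 and 7098 TPM (exon reads per exon length, scaled to 1000000 in each library) in iPSC lines 6 and 10, against 1.18 and 1.46 TPM in fibroblast lines 1 and 2. Of 22 fibroblast markers, 18 were called lower and 0 higher in iPSCs, and their sums were 10416 and 5116 TPM in iPSC lines 6 and 10, against 37472 and 43459 TPM in fibroblast lines 1 and 2. No fibroblast marker was at 0 in either iPSC library, and the sums in lines 6 and 10 were 25.7% and 12.6% of the fibroblast mean. Single markers ranged from 8.29% to 315% of the fibroblast mean in line 6 and from 3.14% to 101% in line 10. Fibroblast marker RNA was thus present in both iPSC libraries, about 2.04 times as much in line 6 as in line 10. Whether it came from feeder cells, from remaining or differentiating *M. minutoides* cells or from the iPSCs themselves was not tested, and cell type, medium and feeder layer cannot be told apart in this design.

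Of the 10 genes, 5 were called lower in iPSCs than in fibroblasts, *Comp*, *Thbs1*, *Sparc*, *Thbs2* and *Tnc*, and 0 were called higher. A call needed an adjusted p under 0.05 (edgeR quasi-likelihood test, Benjamini-Hochberg over the 17777 genes tested) and a fold over 2. Among all genes tested, 22.3% were called lower and 27.1% higher. At an unadjusted p under 0.05, 7 of the 10 were lower and 0 higher, against 35.0% lower and 38.7% higher among all genes tested, and DESeq2 and limma also called 0 of them higher. The median log2 fold change was −0.92 over the 10 genes and 0.08 over all genes tested. In 7 of the 10, both iPSC lines had a lower TPM than both fibroblast lines, an order found in 37.8% of all genes tested, and in 0 of the 10 were both iPSC lines higher, as they were in 48.7% of all genes tested. By TPM, *Spp1*, *Vcan* and *Matn2* were the members whose groups overlapped. Scaled with TMM, as in the edgeR test, exon reads of *Vcan* and *Matn2* were lower in both iPSC lines than in both fibroblast lines. In bulk RNA, a smaller share of cells that make a transcript and less of it per cell cannot be told apart.

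**Figure D1:**
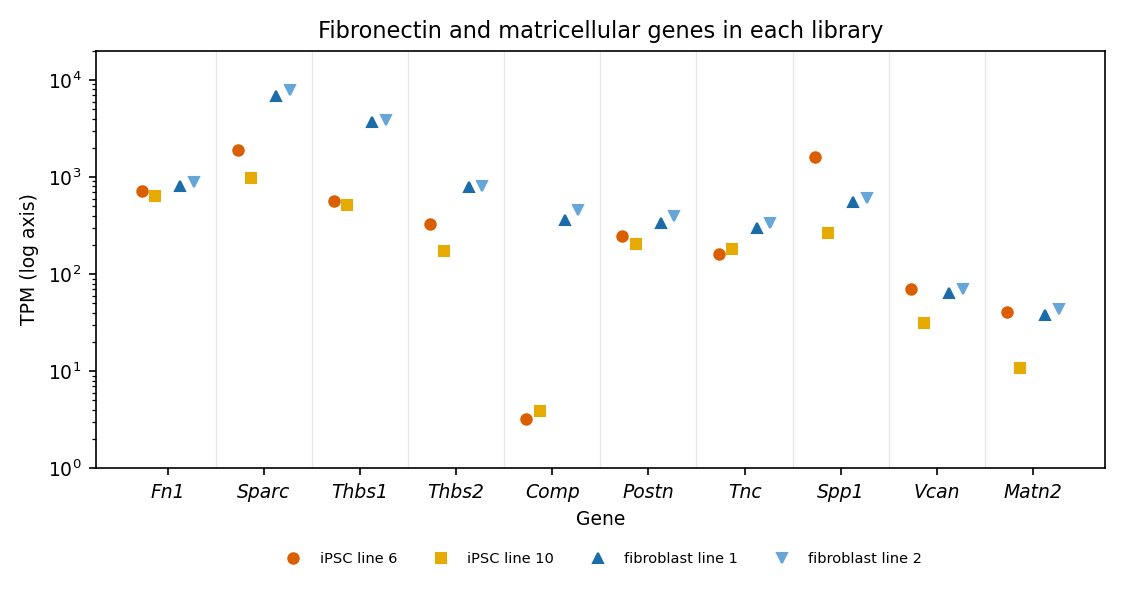
TPM of each of the 10 genes (log scale, vertical axis) in iPSC lines 6 and 10 and fibroblast lines 1 and 2, 1 point per library. Comp lay at 3.24 and 3.89 TPM in the iPSC lines, far under its 363 and 456 TPM in the fibroblast lines, whereas the Fn1 points of all 4 libraries lay between 636 and 892 TPM.

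Together the 10 genes made up 5671 and 2987 TPM in iPSC lines 6 and 10, against 13720 and 15363 TPM in fibroblast lines 1 and 2. These sums were 39.0% and 20.5% of the fibroblast mean. The composition of the sum differed as well. *Sparc* made up 33.9% and 32.4% of it in iPSC lines 6 and 10, against 49.3% and 51.5% in fibroblast lines 1 and 2. The share of *Fn1* was 12.6% and 21.3% in the iPSC lines, against 5.90% and 5.81% in the fibroblast lines. *Spp1* took up 28.6% of the sum in iPSC line 6 and 8.83% in line 10, against 3.99% and 3.98% in the fibroblast lines.

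*Fn1* (ENSMUSG00000026193, chromosome 1 from 71585520 to 71653200, reverse strand, GRCm38 as for all positions here) encodes fibronectin. It had 712 and 636 TPM in iPSC lines 6 and 10, against 809 and 892 TPM in fibroblast lines 1 and 2. The iPSC lines were both lower, without overlap, by a margin well short of a halving. The iPSC lines averaged 674 ± 53.8 TPM and the fibroblast lines 851 ± 59.0 TPM (SD, n = 2 each). This gave a log2 fold change of −0.46 (SE 0.087, adjusted p = 0.00874 by edgeR), which did not reach the fold needed for a call. The adjusted p depended on the scaling and the test. With library totals alone the log2 fold change was −0.18 (adjusted p = 0.13 by edgeR). In the limma fits on TPM it was −0.34, with adjusted p from 0.0677 to 0.157. Adjusted p stayed under 0.05 with upper-quartile scaling (−0.28, adjusted p = 0.0306 by edgeR) and in DESeq2 (−0.46, adjusted p = 0.00231). *Fn1* stayed at 83.7% and 74.7% of the fibroblast mean in iPSC lines 6 and 10. Of the 22 fibroblast markers, 4 had a higher percent than *Fn1* in line 6 and 1 in line 10, and the median marker was at 24.6% and 13.8%. *Fn1* ranked 183rd and 201st by TPM among all genes in the iPSC lines, against 133rd and 130th in the fibroblast lines.

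*Sparc* (ENSMUSG00000018593, chromosome 11 from 55394500 to 55423183, reverse strand), also called osteonectin, encodes a calcium- and collagen-binding glycoprotein. It was the most abundant of the 10 genes in every library, with 1920 and 968 TPM in iPSC lines 6 and 10, against 6763 and 7908 TPM in fibroblast lines 1 and 2. In the fibroblasts it ranked 5th and 2nd among all genes, and in the iPSC lines 52nd and 120th. *Sparc* fell by 2.46 on the log2 scale (SE 0.362, adjusted p = 0.00405 by edgeR). Its remaining 26.2% and 13.2% of the fibroblast mean lay close to the 25.7% and 12.6% of the summed fibroblast markers.

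*Thbs1* (ENSMUSG00000040152, chromosome 2 from 118111876 to 118127133, forward strand) encodes thrombospondin-1, a trimer known to bind CD36 and CD47 and to release active TGF-β from its latent form. It had 566 and 514 TPM in iPSC lines 6 and 10, against 3706 and 3837 TPM in fibroblast lines 1 and 2. The lines of each group lay close together, and the groups were far apart. *Thbs1* was 7.64-fold higher in fibroblasts, a log2 fold change of −2.93 (SE 0.0931, adjusted p = 0.00016 by edgeR). The iPSC lines kept 15.02% and 13.6% of the fibroblast mean. Unlike the summed fibroblast markers, with their ratio of 2.04, *Thbs1* differed little between the lines, at a TPM ratio of 1.10 for line 6 over line 10.

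*Thbs2* (ENSMUSG00000023885, chromosome 17 from 14665500 to 14694235, reverse strand) encodes thrombospondin-2, the closest relative of thrombospondin-1 and a regulator of collagen fibrils and of matrix metalloproteinase levels. It had 327 and 172 TPM in iPSC lines 6 and 10, against 791 and 812 TPM in fibroblast lines 1 and 2. Both iPSC lines were lower, line 10 more so. For *Thbs2* the log2 fold change was −1.81 (SE 0.334, adjusted p = 0.00823 by edgeR), and 40.8% and 21.5% of the fibroblast mean remained in lines 6 and 10.

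*Comp* (ENSMUSG00000031849, chromosome 8 from 70373558 to 70382066, forward strand) encodes cartilage oligomeric matrix protein, the pentameric thrombospondin of cartilage and tendon that helps to order collagen fibrils. It was nearly lost from the iPSC lines, with 3.24 and 3.89 TPM in lines 6 and 10, against 363 and 456 TPM in fibroblast lines 1 and 2. These levels rest on 105 and 117 exon reads in the iPSC lines, against 10032 and 11606 in the fibroblast lines. *Comp* was 123-fold higher in fibroblasts (log2 fold change −6.94, SE 0.148, adjusted p = 0.000132 by edgeR), the largest difference among the 10 genes. What remained was 0.790% and 0.949% of the fibroblast mean, while the lowest of the 22 fibroblast markers stood at 8.29% in line 6 and 3.14% in line 10. Markers of cartilage, bone and tendon summed to 45.8 and 44.2 TPM in iPSC lines 6 and 10, against 157 and 176 TPM in the fibroblast lines. Of these 8 markers, 7 could be tested, and 3 were called lower and 2 higher in iPSCs. The part of such cells in the *Comp* difference was not tested.

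*Tnc* (ENSMUSG00000028364, chromosome 4 from 63959785 to 64047015, reverse strand) encodes tenascin-C, a large hexameric glycoprotein of embryonic and wound matrix that weakens adhesion to fibronectin. It had 161 and 183 TPM in iPSC lines 6 and 10, against 299.7 and 338 TPM in fibroblast lines 1 and 2. The groups did not overlap, and line 10 was slightly above line 6. The log2 fold change of −1.01 (SE 0.082, adjusted p = 0.00076 by edgeR) put *Tnc* just past the fold limit. Its call depended on that limit. In every fit without an iPSC line, here and for other members, the lone iPSC library was assumed to vary as the fibroblast libraries did, so that its p rests on the fibroblast spread alone. It was −0.73 with library totals alone in place of TMM scaling and −0.95 without iPSC line 6, and neither was called, although adjusted p ran from 4.70e-14 to 0.0137 over the 19 alternatives.

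*Postn* (ENSMUSG00000027750, chromosome 3 from 54361109 to 54391037, forward strand) encodes periostin, a fasciclin-domain protein that binds integrins and assists collagen crosslinking. It had 247 and 203 TPM in iPSC lines 6 and 10, against 338 and 395 TPM in fibroblast lines 1 and 2. Both iPSC lines were lower, and the groups did not overlap. Its log2 fold change was −0.83 (SE 0.125, adjusted p = 0.00441 by edgeR), short of the fold limit. Without iPSC line 6 it was −1.003 with an adjusted p of 5.50e-05, and *Postn* was then called lower, in a fit with 1 iPSC library whose p rests on the fibroblast spread. The iPSC lines retained 67.4% and 55.4% of the fibroblast mean, above the median fibroblast marker, at 24.6% and 13.8%, in both lines. The same held for *Fn1*, *Tnc*, *Thbs2*, *Spp1*, *Vcan* and *Matn2*.

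**Figure D2:**
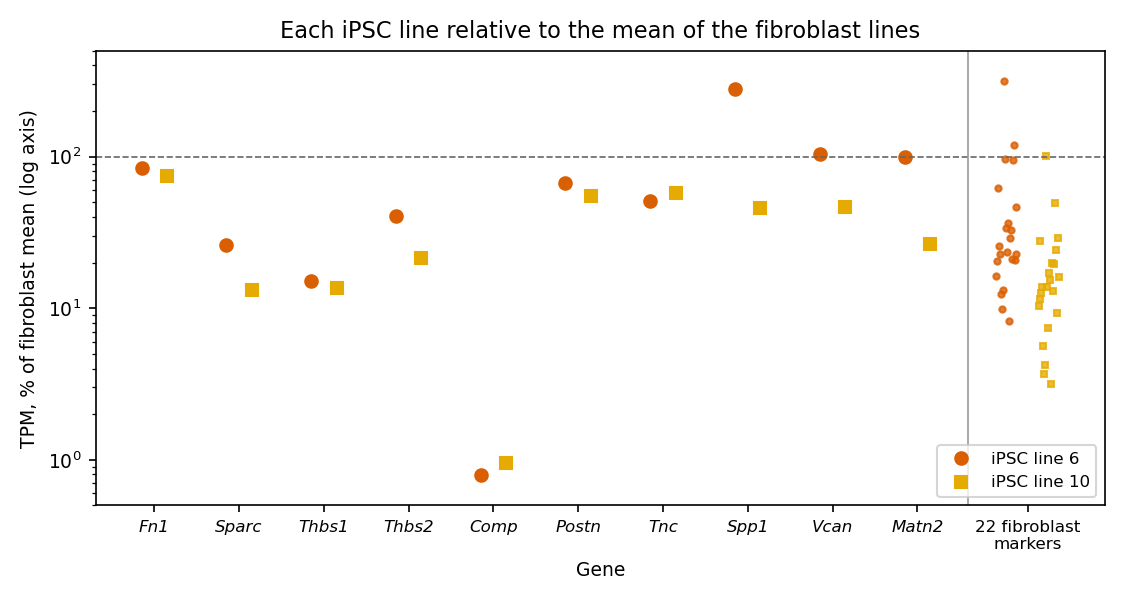
TPM of iPSC lines 6 and 10 as a percent of the mean of fibroblast lines 1 and 2 (log scale) for each of the 10 genes, beside the 22 fibroblast markers, with a dashed line at 100%. Fn1 stood at 83.7% and 74.7%, Thbs1 at 15.02% and 13.6% and Comp at 0.790% and 0.949%, while Spp1 lay on both sides of 100%, at 280% in line 6 and 45.5% in line 10.

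*Spp1* (ENSMUSG00000029304, chromosome 5 from 104435118 to 104441050, forward strand) encodes osteopontin, a secreted phosphoprotein of bone, macrophages and several epithelia that binds integrins and CD44. It had 1624 TPM in iPSC line 6 and 264 TPM in iPSC line 10, against 548 and 612 TPM in fibroblast lines 1 and 2. Line 6 lay above both fibroblast lines and line 10 below both. The iPSC lines averaged 944 ± 962 TPM and the fibroblast lines 580 ± 45.3 TPM (SD, n = 2 each). With such a spread the log2 fold change of 0.59 (SE 0.839, adjusted p = 0.562 by edgeR) was not called. Each iPSC library alone decided the direction. *Spp1* would be called lower without iPSC line 6 (log2 fold change −1.29, adjusted p = 1.62e-05) and higher without iPSC line 10 (log2 fold change 1.36, adjusted p = 9.21e-06), again with p-values from the fibroblast spread alone.

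Because macrophages are a known source of osteopontin, macrophage markers were set beside *Spp1*. Of 8 markers, 6 were called higher in iPSCs and 0 lower. They summed to 257 and 617 TPM in iPSC lines 6 and 10, against 7.83 and 7.84 TPM in fibroblast lines 1 and 2, where 3 and 4 of them were at 0. *Lyz2*, a lysozyme of myeloid cells, had 203 and 463 TPM in iPSC lines 6 and 10 and was at 0 in both fibroblast libraries. *Adgre1*, which encodes the macrophage antigen F4/80, had 10.6 and 43.9 TPM in iPSC lines 6 and 10 and was also at 0 in both fibroblast libraries. *Ptprc*, the pan-leukocyte gene, was named after its values were seen and was not called. It had 0.185 and 0.689 TPM in iPSC lines 6 and 10, against 0.188 and 0.0127 TPM in the fibroblast lines. Line 6, with 6.15 times the *Spp1* of line 10, had 0.416 times its summed macrophage markers. The part of macrophages in the *Spp1* values was not tested.

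*Vcan* (ENSMUSG00000021614, chromosome 13 from 89655312 to 89742509, reverse strand) encodes versican, a large chondroitin sulfate proteoglycan that binds hyaluronan. It had 70.2 TPM in iPSC line 6 and 31.5 TPM in line 10, against 64.0 and 70.4 TPM in fibroblast lines 1 and 2. Line 6 lay within the range of the fibroblasts and line 10 below it. Its log2 fold change of −0.52 (SE 0.398, adjusted p = 0.292 by edgeR) was not called, and the lines stood at 104% and 46.8% of the fibroblast mean. Without iPSC line 6 it was −1.25 with an adjusted p of 1.73e-05, a call that rests on 1 iPSC library and the fibroblast spread.

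*Matn2* (ENSMUSG00000022324, chromosome 15 from 34306677 to 34436273, forward strand) encodes matrilin-2, an adaptor of the matrix with von Willebrand factor A domains. It had 40.4 TPM in iPSC line 6 and 10.8 TPM in line 10, against 38.1 and 43.4 TPM in fibroblast lines 1 and 2. The pattern was that of *Vcan*, with line 6 inside and line 10 below the range of the fibroblasts, at 99.2% and 26.5% of their mean. The log2 fold change was −0.79 (SE 0.629, adjusted p = 0.314 by edgeR), not called, and −2.06 with an adjusted p of 1.00e-05 without iPSC line 6, which was called lower but with 1 iPSC library and the spread of the fibroblasts alone.

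The iPSC lines thus differed from each other within the set. *Spp1* was 6.15 times, *Matn2* 3.74 times, *Vcan* 2.23 times, *Sparc* 1.98 times and *Thbs2* 1.90 times as high in line 6 as in line 10 by TPM. These 5 genes exceeded the 95th percentile of all genes tested, a log2 difference of 0.78 in TPM + 1. *Postn*, *Fn1* and *Thbs1* had ratios of 1.21, 1.12 and 1.10, and *Tnc* and *Comp* were lower in line 6, at 0.880 and 0.833. By reads scaled with TMM, the ratio of *Spp1* was 6.29 (exact 95% binomial interval 6.10 to 6.50) and that of *Comp* 0.851 (0.648 to 1.12), intervals that cover counting error only, since reads amplified by PCR are not independent molecules. Each line was 1 library, so that a difference between lines and a difference between preparations cannot be told apart. Between the fibroblast lines, all 10 genes had a higher TPM in line 2, at ratios of 1.03 to 1.25, as did 76.0% of all genes tested. By reads scaled with TMM, 6 of the 10 were higher in line 2. Fibroblast markers summed to 2.04 times as much in line 6 as in line 10, a ratio close to those of *Sparc* and *Thbs2*. Single markers, named after their values were seen, varied more widely. *Twist2* had 21.8 and 20.3 TPM in iPSC lines 6 and 10, and *Lum* had 478 and 68.1 TPM. A wide difference between the lines was thus not particular to the 10 genes. Whether the fibroblast marker RNA and the members share a source was not tested.

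Reads inside introns, which come mostly from RNA not yet spliced, gave a second readout of the same genes. Reads of *M. musculus* feeder cells would fit the *M. musculus* genome used better than reads of *M. minutoides*. The effect of this on the intron shares was not tested. Over all genes, 11.95% and 12.6% of gene reads lay in introns in iPSC lines 6 and 10, against 10.9% and 9.28% in fibroblast lines 1 and 2. For *Thbs1*, the share was 1.95% and 1.61% in the iPSC lines, against 5.33% and 5.43% in the fibroblast lines. Its intron reads numbered 747 and 518 in the iPSC lines, against 11782 and 11476 in the fibroblast lines. Counted on intron reads alone, *Thbs1* fell by 4.76 on the log2 scale (SE 0.227, adjusted p = 1.97e-05 by edgeR), against a log2 fold change of −2.93 on exon reads. The difference between these estimates was not tested.

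*Fn1* showed the opposite shift. Introns held 3.18% and 3.12% of its reads in iPSC lines 6 and 10, against 1.61% and 1.48% in fibroblast lines 1 and 2, with no overlap. In reads, this was 2982 and 2428 in the iPSC lines, against 1440 and 1341 in the fibroblast lines. The log2 fold change on intron reads was 0.40 (SE 0.143, adjusted p = 0.0517 by edgeR), opposite in sign to the −0.46 on exon reads and not called. Whether intron reads of *Fn1* came from unspliced RNA or from other transcripts within the gene was not tested.

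*Postn* resembled *Thbs1* in sign, with a log2 fold change of −1.74 on intron reads (SE 0.219, adjusted p = 0.000757 by edgeR), a call that the exon reads did not give. Its intron share was nonetheless uneven between the iPSC lines, at 1.32% in line 6 and 2.60% in line 10, against 3.34% and 2.86% in fibroblast lines 1 and 2. *Comp* had 18.0% and 25.9% of its few reads in introns in iPSC lines 6 and 10, against 8.47% and 8.25% in the fibroblast lines. *Tnc* had 7.56% and 8.23% in the iPSC lines, against 5.32% and 5.23% in the fibroblast lines. *Matn2* in iPSC line 10, at 26.5%, stood apart from its 13.6% in line 6 and its 12.8% and 12.2% in the fibroblast lines. In the 4 genes *Sparc*, *Thbs2*, *Spp1* and *Vcan*, intron shares ranged from 0.884% to 4.53% over the libraries.

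**Figure D3:**
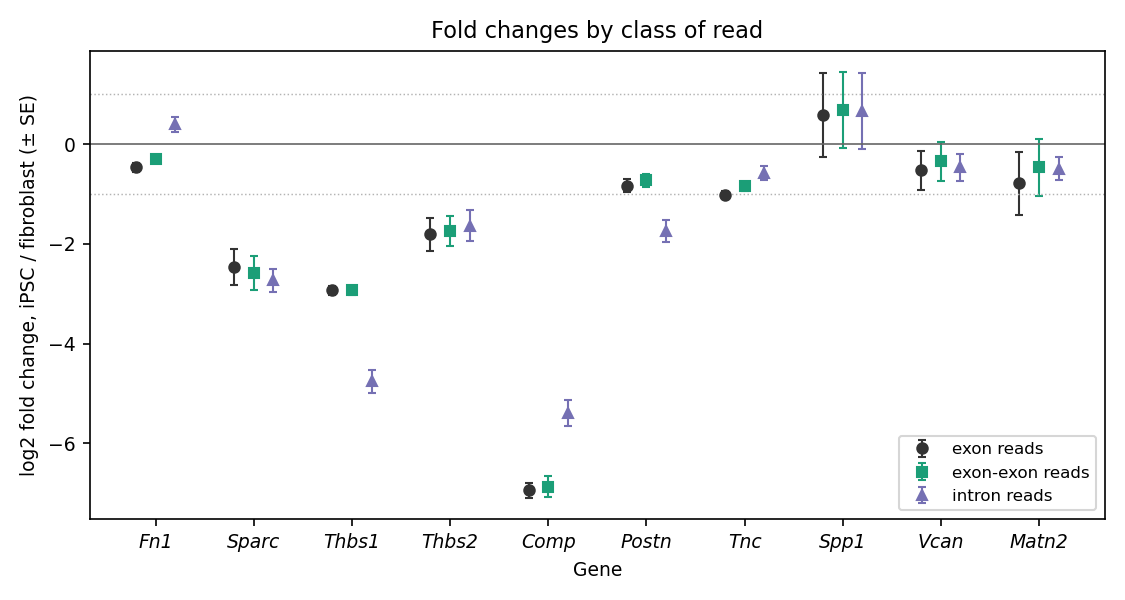
Log2 fold change of iPSCs over fibroblasts (vertical axis) of each of the 10 genes from exon reads, exon-exon reads and intron reads, with bars of ± 1 SE, a solid line at 0 and dotted lines at the fold limit of 2. For Fn1 the exon and intron points lay on opposite sides of 0, at −0.46 and 0.40, and for Thbs1 the intron point, at −4.76, lay below the exon and exon-exon points, both at −2.93.

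Genes of related or similar matrix proteins did not share a direction. The 30 relatives came from the SPARC, thrombospondin, tenascin, matrilin, lectican, CCN and SIBLING families and others. The CCN genes, *Fbln1* and some others are of families to which none of the 10 genes belongs. Of the 30 relatives, 25 could be tested, and 9 were called lower and 8 higher in iPSCs. Among all genes tested, 22.3% were called lower and 27.1% higher. The median log2 fold change of the relatives was 0.19, and the same with *Smoc1* at its lower bound. Their summed TPM was nonetheless 48.4% and 30.9% of the fibroblast mean in iPSC lines 6 and 10. *Smoc1*, a SPARC-family calcium-binding protein, had 143 and 170 TPM in iPSC lines 6 and 10 and 0 reads in both fibroblast libraries. It was at least 2970-fold higher in iPSCs, with 3 counts as the upper limit in both fibroblast libraries together (adjusted p = 0.000186 by edgeR). *Fbln1*, which encodes the fibronectin-binding fibulin-1, had 177 and 69.2 TPM in iPSC lines 6 and 10, against 0.664 and 0.747 TPM in fibroblast lines 1 and 2, a log2 fold change of 7.24 (SE 0.649, adjusted p = 0.000983 by edgeR).

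The rest of the 6 calls of largest log2 fold change among the relatives were between lower levels. The lectican *Bcan*, a brain proteoglycan, had 6.78 and 6.57 TPM in iPSC lines 6 and 10, against 0.159 and 0.0574 TPM in the fibroblast lines. *Wisp3*, of the CCN family, had 241 exon reads over the iPSC group and 3 over the fibroblast group, a ratio of 62.3 after scaling (exact 95% binomial interval 21.1 to 304, counting error only). The SPARC-family proteoglycan *Spock1* had 0.842 and 1.36 TPM in iPSC lines 6 and 10, against 0.0386 and 0.0139 TPM in the fibroblast lines. *Thbs4*, another thrombospondin of tendon and muscle, went the other way, with 0.334 and 0.0600 TPM in iPSC lines 6 and 10, against 5.88 and 8.79 TPM in the fibroblast lines, a log2 fold change of −4.92.

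The most abundant relatives without a call were *Tgfbi*, *Wisp1* and *Tnn*. *Tgfbi*, a fasciclin-domain relative of periostin, had 76.7 TPM in iPSC line 6 and 7.53 TPM in line 10, against 205 and 231 TPM in the fibroblast lines, and its log2 fold change of −2.48 (SE 1.07) gave an adjusted p of 0.0965 by edgeR. *Wisp1*, of the CCN family, had a log2 fold change of −0.83. The tenascin *Tnn* had 12.6 TPM in iPSC line 6 and 0.356 TPM in line 10, against 1.52 and 1.54 TPM in the fibroblast lines. As with *Spp1*, its iPSC lines lay on both sides of the fibroblasts.

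Within the CCN family, genes chosen after their values were seen differed in direction. *Ctgf*, a TGF-β-responsive growth factor modulator, rose to 157 and 141 TPM in iPSC lines 6 and 10, against 61.4 and 68.7 TPM in fibroblast lines 1 and 2 (log2 fold change 1.07, SE 0.0923, adjusted p = 0.000887 by edgeR). *Cyr61* had a log2 fold change of −1.58, *Wisp2* of −2.40 and *Nov* of −3.16, and all of these were called lower. *Ctgf* lay close to the fold limit.

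The receptors of these proteins were mostly lower in iPSCs. Of 16 integrin and other receptor genes, 11 were called lower and 1 higher, with a median log2 fold change of −1.50. The shares among all genes tested were 22.3% lower and 27.1% higher. Without either fibroblast line, *Itga4*, *Itga8*, *Itgb6*, *Cd47* and *Lrp1* were no longer called. Those fits hold 1 fibroblast library, so that their spread came from the iPSC lines alone. The scavenger receptor *Cd36*, bound by thrombospondin-1, had 5.15 and 4.72 TPM in iPSC lines 6 and 10, against 97.6 and 115 TPM in fibroblast lines 1 and 2 (log2 fold change −4.54, SE 0.107, adjusted p = 0.000135 by edgeR). *Itgb3*, whose product pairs with that of *Itgav* to bind osteopontin, fibronectin and periostin, had 3.09 and 3.73 TPM in the iPSC lines, against 36.5 and 40.4 TPM in the fibroblast lines, a log2 fold change of −3.61.

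The fibronectin receptor subunit gene *Itga5* had 78.2 and 57.8 TPM in iPSC lines 6 and 10, against 228 and 253 TPM in the fibroblast lines, a log2 fold change of −1.95. Log2 fold changes of *Itgav*, *Cd44*, the hyaluronan and osteopontin receptor, and *Itga8* were −2.003, −1.90 and −1.89. *Fn1* itself, at 83.7% and 74.7% of the fibroblast mean in lines 6 and 10, stood beside *Itga5* at 32.5% and 24.0%. *Itgb5*, *Sdc2* and *Sdc4*, the most abundant receptors without a call, had log2 fold changes of −0.67, −0.88 and −0.77. *Itgb8*, a subunit of a TGF-β-activating integrin, was the receptor called higher, with 2.59 and 0.945 TPM in iPSC lines 6 and 10, against 0.496 and 0.401 TPM in the fibroblast lines (log2 fold change 1.81, SE 0.579, adjusted p = 0.0437 by edgeR), and it was not called without iPSC line 6 or without either fibroblast line.

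**Figure D4:**
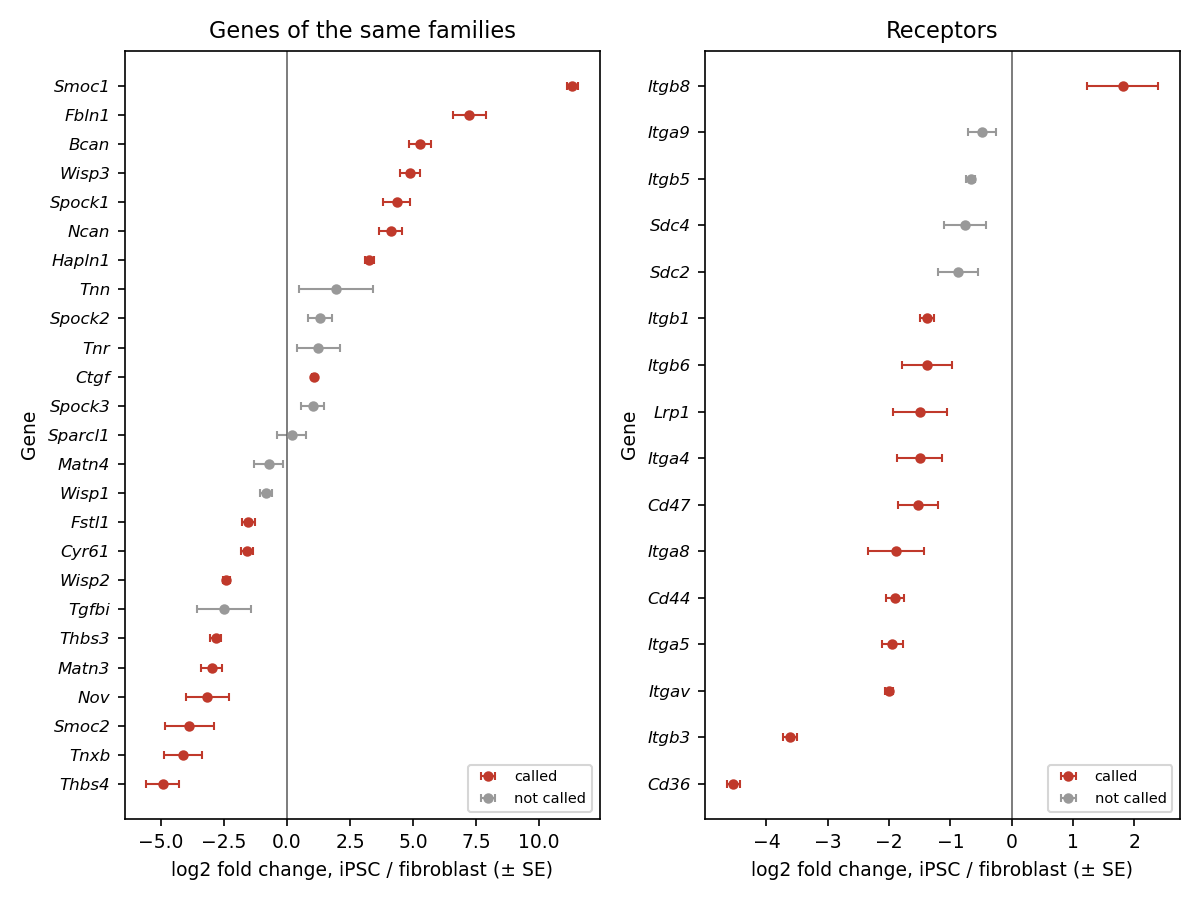
Log2 fold change of iPSCs over fibroblasts (horizontal axis, bars of ± 1 SE) for the 25 relatives tested, left, and the 16 receptors, right, with called genes in red, the others in grey and a line at 0. Relatives lay on both sides of 0, from Thbs4 at −4.92 upwards, while 15 of the 16 receptors lay below it and Itgb8 above it, at 1.81; the fitted value of Smoc1, which had 0 reads in fibroblasts, is no bound.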

How the data were processed

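The authors extracted total RNA, and the paper does not say how RNA was selected for the libraries. They deposited 1 table per library with read counts per gene, split into exon, intron and exon-exon reads, and TPM. TPM equals exon reads per exon length scaled to 1000000. GRCm38, a *M. musculus* genome, is the build in the submitters' processing notes. The aligner and counter: not given in the sources used here. *M. musculus* feeder reads would fit that genome better than *M. minutoides* reads, an effect not tested. The lowest unique share of a member's exon reads in a library was 99.4%. Deposited exon counts of all genes were tested with edgeR 4.0.16 in R 4.3.3 (filterByExpr, TMM, prior count 2, quasi-likelihood test); limma 3.58.1 and DESeq2 1.42.0 were alternatives. The study's own test on TPM was not used. The median chi-square per gene was 2.70 between iPSC lines and 1.07 between fibroblast lines, above the 0.455 of sampling noise, so no pair was treated as a repeat deposit of 1 library; this does not show separate cultures. Members and lists were chosen with earlier results of these data known. All members are named, as are, of relatives and receptors, the 6 calls of largest log2 fold change, up to 3 uncalled genes of highest TPM and any direction with 5 or fewer calls, and up to 3 genes per marker list. Marker lists of endoderm, endothelium, Schwann cells, muscle and keratinocytes were also summed. RPKM was not used.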

Additional observations from a re-analysis of the deposited data

Results flagged for a closer look

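*Spp1* was the member whose iPSC lines moved in opposite directions from both fibroblast lines, at 280% of the fibroblast mean in line 6 and 45.5% in line 10. Each line was 1 library, and the difference between the lines was not tested.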

How the results depend on the processing

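*Comp*, *Thbs1*, *Sparc* and *Thbs2* were called lower under all 20 alternatives. Leaving out each library in turn, 5 to 8 members were called lower and 0 to 1 higher: without iPSC line 6, *Postn*, *Spp1*, *Vcan* and *Matn2* joined the calls and *Tnc* left, and without iPSC line 10 *Spp1* was called higher. The log2 fold change of *Spp1* ran from −1.29 to 1.36. *Fn1* turned to 0.40 on intron reads (intron and exon-exon reads were added as alternatives after seeing the data). *Tnc* lost its call under 10 alternatives, with log2 fold changes of −0.58 to −0.99, all short of the fold limit. Receptors called lower numbered 6 to 12 and those called higher 0 to 1 when 1 library was left out; 0 receptors were called higher with total gene reads, a filter of at least 1 count, all 3 limma fits, glmTreat or intron reads. On intron reads, 4 relatives were called higher. Library totals alone moved the median gene by 0.28 on the log2 scale and gave 3030 genes lower and 5765 higher, against 3962 and 4818 with TMM; upper-quartile scaling moved it by 0.18. Total counts gave the same signs for every member. Scaled reads in place of TPM moved 11 of the 20 percents of the fibroblast mean by more than the fibroblast spread, as for *Fn1* to 77.4% and 67.6% in lines 6 and 10. No paired analysis was possible because the groups share no replicate number. *Comp* in iPSCs rests on few reads, so that the 95% Wilson interval of its intron share in line 10 ran from 19.7% to 33.3%.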

Other observations

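The share of exon reads that span an exon-exon junction, a value no comparison above uses, differed between groups for some members. It was 30.7% and 30.1% for *Sparc* in iPSC lines 6 and 10, against 36.8% and 37.1% in fibroblast lines 1 and 2. For *Thbs1* it was 28.9% and 29.0% in the iPSC lines, against 32.3% and 32.2% in the fibroblast lines. *Matn2* differed the other way, with 42.6% and 42.9% in the iPSC lines, against 37.5% and 38.8% in the fibroblast lines. For *Fn1* the shares were 46.9% and 47.2% in the iPSC lines, against 46.7% and 46.8% in the fibroblast lines. Over all genes they were 33.7% and 34.1% in the iPSC lines, against 32.9% and 34.4% in the fibroblast lines.

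Markers of primitive and parietal endoderm, cells known for *Sparc* expression in *M. musculus* embryos, summed to 618 and 465 TPM in iPSC lines 6 and 10, against 1448 and 1629 TPM in fibroblast lines 1 and 2, where *Col4a1* had 952 and 1054 TPM. Of these 12 markers, 4 were called lower and 5 higher in iPSCs. *Amn* was the most abundant of those called higher, with 116 and 151 TPM in the iPSC lines, against 0 and 0.0633 TPM in the fibroblast lines, a gene chosen after its values were seen. Endothelial and platelet markers summed to 37.2 and 46.4 TPM in the iPSC lines, against 27.6 and 29.3 TPM in the fibroblast lines. Markers of Schwann cells, skeletal muscle and keratinocytes summed to at most 28.7 TPM in the iPSC lines, against at most 58.3 TPM in the fibroblast lines. The calls did not follow these sums. Of 6 endothelial and platelet markers tested, 4 were called higher and 1 lower in iPSCs. For skeletal muscle it was 3 higher and 1 lower of 4 tested. Schwann cell and keratinocyte markers each had 1 higher and 1 lower of 4 tested.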
